A study of Homo sapiens with 12 samples.

Results

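The 4 HLA class I heavy chain genes HLA-B, HLA-C, HLA-E and HLA-F, the light chain gene B2M, and NLRC5 were followed across 12 total-RNA libraries of MDA-MB-231, a mesenchymal-like human breast cancer cell line that lacks hormone receptors. These 6 genes were picked by symbol from the 58735 genes of the deposited tables, and all 6 passed the filter on low counts in every comparison. The libraries form 4 groups of 3: cells with a guide RNA against UFM1 (sgUFM1), cells with a guide against UFL1 (sgUFL1), the control-guide cells run with sgUFM1, and the control-guide cells run with sgUFL1. The series title speaks of knockdown and the design text of knockout, and neither the guide sequences, the time in culture nor whether the 3 replicates came from separate cultures is given in the sources used here. The p-values therefore measure the spread between these samples, which may be technical.

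UFM1 belongs to the ubiquitin-like modifiers, and the ligase UFL1 couples it to targets at the endoplasmic reticulum, where class I molecules are also built. A class I molecule is a heavy chain paired with beta-2-microglobulin, the product of B2M, and loaded with a peptide that the TAP transporter brings in from the cytosol. Cytotoxic T cells read the complex at the surface, and natural killer cells also sense HLA-E and its loss. NLRC5 is a nuclear transactivator that works at an enhanceosome of RFX, CREB/ATF and NF-Y factors on the promoters of heavy chain genes and B2M. Interferon gamma induces NLRC5, and acts on the same promoters through IRF1.

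The proximal promoters are shown because the heavy chain genes and B2M carry similar elements there. The window was 190 to 41 bases before the RefSeq start (GRCh38.p14), and 4 members had an entry. It covers chr6:31357220-31357369 (minus strand) for HLA-B, chr6:31272133-31272282 (minus strand) for HLA-C and chr15:44711327-44711476 (plus strand) for B2M, with no exon base of GENCODE 29 in these 3 windows. For HLA-F only the 30 bases chr6:29723260-29723289 (plus strand) around its interferon-response match are printed, and 11 of them lie in a GENCODE exon. Capitals mark matches, on either strand, to the letters GAANNGAAA or GAAANNGAA (interferon response), TGACG (CRE-like) and CCAAT (the NF-Y box).
HLA-B: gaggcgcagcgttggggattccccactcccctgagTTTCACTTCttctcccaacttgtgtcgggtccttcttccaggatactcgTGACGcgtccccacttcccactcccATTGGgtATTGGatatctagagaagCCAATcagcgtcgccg
HLA-C: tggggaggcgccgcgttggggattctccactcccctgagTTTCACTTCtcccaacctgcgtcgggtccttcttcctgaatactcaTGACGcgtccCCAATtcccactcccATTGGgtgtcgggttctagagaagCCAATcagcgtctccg
HLA-F: ttccccatctccccagagtTTCTCTTTCtc
B2M: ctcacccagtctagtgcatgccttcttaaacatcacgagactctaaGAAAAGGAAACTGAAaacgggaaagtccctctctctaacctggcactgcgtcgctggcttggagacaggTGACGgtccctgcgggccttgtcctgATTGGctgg

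HLA-B and HLA-C each had 1 match to GAANNGAAA, which was found in 3.9% of the 27305 gene promoters over the same window. B2M had 2 overlapping matches to GAAANNGAA and HLA-F had 1, letters found in 4.15% of promoters. TGACG stood at position -106 in HLA-B, -105 in HLA-C and -75 in B2M and was found in 14.2% of promoters, while the HLA-F window held no match to those letters. CCAAT was found in 24.4% of promoters, with 3 matches in HLA-B, 3 in HLA-C, 2 in HLA-F and 1 in B2M.

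The names of the groups are not the same in both deposited tables. Values matched library by library show that 6 of 12 libraries carry 1 name in both, and that the count table's sgUFL1 libraries are the FPKM table's controls for sgUFM1 and the reverse. These 6 libraries are called here set 1 (sgUFL1 in the count table, controls for sgUFM1 in the FPKM table) and set 2 (controls for sgUFM1 in the count table, sgUFL1 in the FPKM table). Libraries held 15342793 to 18033331 counts. UFM1 averaged 38.7 normalised counts (CPM, scaled to library size) in sgUFM1, 53.5 CPM in set 1, 53.9 CPM in set 2 and 65.6 CPM in controls for sgUFL1, and fell by 0.76 on the log2 scale in sgUFM1 against the last (edgeR adjusted p = 0.0026). UFL1 averaged 23.1 CPM in sgUFM1, 18.03 CPM in set 1, 12.5 CPM in set 2 and 24.9 CPM in controls for sgUFL1. Against the last, its log2 fold change was -0.45 (adjusted p = 0.13) in set 1 and -1.02 (adjusted p = 0.0017) in set 2. In an edgeR fit with offsets for GC content and length these were -0.09 (adjusted p = 0.9) and -0.47 (adjusted p = 0.047). Against set 2, UFL1 was at 0.90 in sgUFM1 (adjusted p = 5.6e-06) and at 0.53 in set 1 (adjusted p = 0.052). Set 2 thus had the lowest UFL1, at 11.5 to 13.2 CPM. The labels do not settle the names and no group was assigned from expression, so each comparison below is given under both. The 5 markers expected in this line (VIM, CD44, MSN, CAV1, AXL) summed to 3330 to 4550 CPM. Of 5 markers expected to be low or absent, ESR1 and CDH1 stayed under 1 CPM. The others reached 1.16 CPM for PGR, 9.75 CPM for EPCAM and 71.9 CPM for ERBB2. Of 10 leukocyte markers 4, among them CD3E, CD2 and MS4A1, were at 0 in all 12 libraries and 8 stayed under 1 CPM. All 10 together reached 5.94 to 6.25 CPM in sgUFM1, 4.01 to 4.9 CPM in set 1, 5.26 to 5.96 CPM in set 2 and 3.66 to 4.94 CPM in controls for sgUFL1.

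Libraries differed in base composition: transcripts weighted by their counts had a mean GC content of 49.09% to 50.26% in sgUFM1, set 1 and set 2, against 47.59% to 48.66% in controls for sgUFL1. The member transcripts differ in the same property. The GC content of the longest transcript was 59.0% for HLA-B, 62.7% for HLA-C, 54.8% for HLA-E, 57.7% for HLA-F and 58.0% for NLRC5, all above the median of 48.0% over 15815 genes, whereas that of B2M was 40.6%. Values from a fit with offsets per library for GC content and length are therefore given for the members beside the main ones, and for some of the other genes. The share of counts from mitochondrial genes also set the same libraries apart, at 3.12% to 4.003% in sgUFM1, set 1 and set 2, against 4.51% to 4.76% in controls for sgUFL1. The part of GC content and of the mitochondrial share in any difference was not tested.

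Per length of all annotated exons, which is 6079 bases for B2M and 2975 for HLA-E, HLA-E and B2M were the most abundant members. Without division by length B2M lay at 382 to 669 CPM and HLA-E at 181 to 323 CPM. The order of these genes in FPKM therefore depends on the length used. Over 12 libraries the FPKM level ran from 60.4 to 107 for HLA-E (median 91.3), from 62.4 to 110.0 for B2M (median 85.9), from 30.8 to 62.6 for HLA-B (median 49.7) and from 17.4 to 32.7 for HLA-C (median 25.9). NLRC5 lay at 1.62 to 2.27 FPKM and HLA-F at 0.255 to 1.19 FPKM. HLA-E and B2M overlapped in FPKM in sgUFM1, set 1 and controls for sgUFL1. In set 2 HLA-E averaged 99.3 ± 7.42 FPKM and B2M 80.5 ± 4.81 FPKM (SD, n = 3) with no overlap. NLRC5 exceeded HLA-F in all 12 libraries. The handling of reads that fit several HLA genes is not given in the sources used here, so levels of single HLA genes are uncertain. Reads were also not stated to be counted by strand. HLA-B shares 17.76% of its exon bases with the opposite-strand AL671883.2 and 35 bases with HLA-C, and HLA-F shares 28.47% with opposite-strand genes, among them HLA-F-AS1, while HLA-E, B2M and NLRC5 share none.

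HLA-B (ENSG00000234745, chromosome 6, 31269491 to 31357188, minus strand in GENCODE 29) encodes a classical heavy chain that presents peptides to CD8 T cells. It had 164, 142 and 157 CPM in sgUFM1, 115, 156 and 151.5 CPM in set 1, 155, 193 and 173 CPM in set 2, and 105, 131 and 95.0 CPM in controls for sgUFL1. All sgUFM1 and set 2 libraries lay above the controls for sgUFL1, while replicate 1 of set 1 lay among them. HLA-C (ENSG00000204525, chromosome 6, 31268749 to 31272130, minus strand), the classical heavy chain that also serves as a main ligand of killer cell inhibitory receptors, had 71.8, 65.5 and 68.9 CPM in sgUFM1, 51.4, 77.7 and 65.4 CPM in set 1, 63.1, 82.8 and 77.6 CPM in set 2, and 44.3, 58.4 and 46.5 CPM in controls for sgUFL1. Its order of libraries was like that of HLA-B, with replicate 1 the lowest library of set 1 and of set 2.

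HLA-E (ENSG00000204592, chromosome 6, 30489467 to 30494205, plus strand) presents signal peptides of other heavy chains to the NKG2A receptor. It had 282, 268 and 269 CPM in sgUFM1, 225, 284 and 285 CPM in set 1, 279, 323 and 295 CPM in set 2, and 205, 250.3 and 181 CPM in controls for sgUFL1. The sgUFM1 libraries lay within a narrow band above every control for sgUFL1, and set 1 overlapped both. HLA-F (ENSG00000204642, chromosome 6, 29722775 to 29738528, plus strand) is a nonclassical heavy chain that can reach the surface without peptide. Its counts were 54, 40 and 37 in sgUFM1, 29, 26 and 36 in set 1, 71, 92 and 78 in set 2, and 27, 29 and 18 in controls for sgUFL1, or 2.75 ± 0.502, 1.94 ± 0.340, 4.68 ± 0.703 and 1.51 ± 0.344 CPM in the same order (SD, n = 3 each). Set 2 stood above all 9 other libraries, and sgUFM1 above all libraries of set 1 and of the controls for sgUFL1.

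B2M (ENSG00000166710, chromosome 15, 44711487 to 44718877, plus strand) encodes the light chain shared by all class I molecules. It had 555, 580.1 and 639 CPM in sgUFM1, 382, 557 and 536 CPM in set 1, 461.5, 519 and 505 CPM in set 2, and 440.3, 669 and 489.8 CPM in controls for sgUFL1. The controls for sgUFL1 spanned all other libraries but replicate 1 of set 1, and sgUFM1 lay above set 2 throughout. NLRC5 (ENSG00000140853, chromosome 16, 56989485 to 57083531, plus strand) had 25.5, 26.4 and 24.1 CPM in sgUFM1, 23.8, 23.5 and 24.7 CPM in set 1, 25.5, 28.5 and 28.3 CPM in set 2, and 21.5, 20.1 and 20.3 CPM in controls for sgUFL1. Every library of the other sets exceeded the controls for sgUFL1, as in 16.8% of genes for sgUFM1 and 24.7% for set 2. Set 1 and set 2 did not overlap. The share of genes without overlap is not given here for set 1 against set 2 or against these controls.

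**Figure D1:**
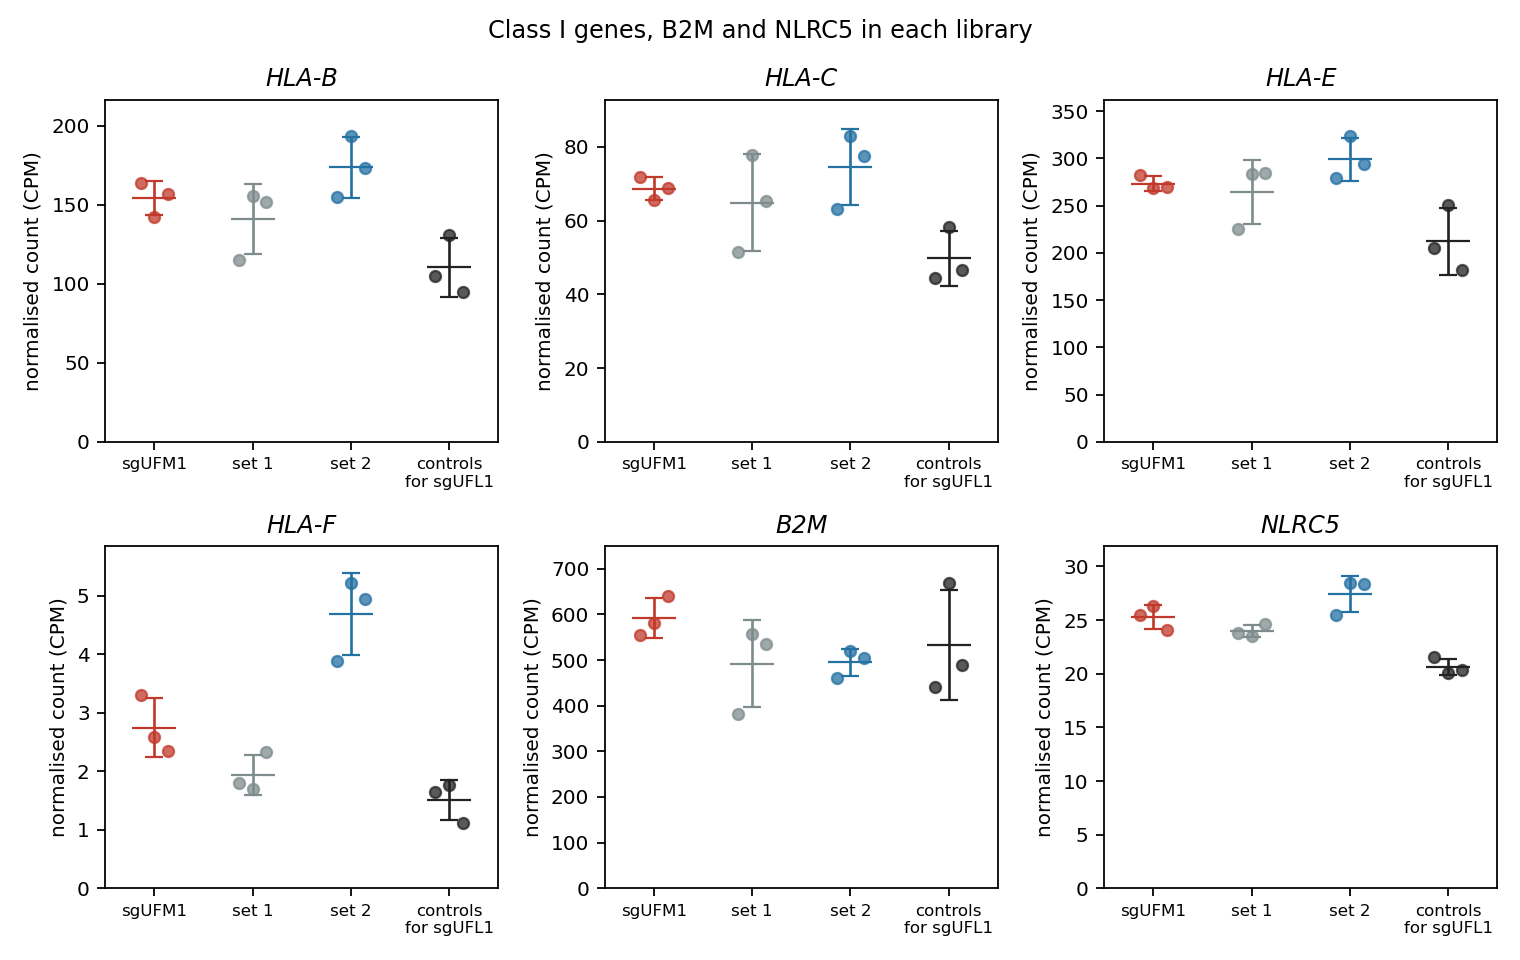
Normalised counts (CPM, y axis from 0) of the 6 genes in each library, with 1 point per library and the mean ± SD of 3 libraries per set. HLA-F is highest in set 2, at 3.89 to 5.22 CPM, and B2M in the controls for sgUFL1 spreads from 440.3 to 669 CPM.

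In sgUFM1 against the controls for sgUFL1, the comparison with the same names in both tables, the classical heavy chains were higher. These controls belong by title to the other guide. HLA-B rose by 0.48 on the log2 scale (SE 0.13, adjusted p = 0.033) and HLA-C by 0.46 (SE 0.12, adjusted p = 0.035) in edgeR's quasi-likelihood test. HLA-F at 0.86 (SE 0.32, adjusted p = 0.099), HLA-E at 0.36 (SE 0.12, adjusted p = 0.076), NLRC5 at 0.29 (SE 0.12, adjusted p = 0.14) and B2M at 0.15 (SE 0.15, adjusted p = 0.54) did not pass. So 2 of 6 members were called higher, against 5.57% of 15035 genes, and 0 lower, against 4.43%. The members' median was 0.41, against 0.00 over all genes. In 5 of 6, all but B2M, each sgUFM1 library exceeded each control library, as in 16.8% of genes. The GC content of the libraries moved with this difference, and with offsets for it HLA-B was at 0.25 (adjusted p = 0.08) and HLA-C at 0.15 (adjusted p = 0.42), with 0 members called in edgeR (3 at an unadjusted p under 0.05) and 8.35% of genes. HLA-F was then at 0.66 (adjusted p = 0.18), HLA-E at 0.22 (adjusted p = 0.1), B2M at 0.31 (adjusted p = 0.23) and NLRC5 at 0.05 (adjusted p = 0.81). Both calls also ended without any 1 sgUFM1 library and without replicate 1 or 3 of the controls (adjusted p between 0.061 and 0.16), while without replicate 2 of the controls 5 members passed, B2M at 0.35 among them.

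Against set 2, which is its own control by the count table and sgUFL1 by the FPKM table, sgUFM1 had less HLA-F and more B2M. HLA-F fell by 0.76 on the log2 scale (SE 0.22, adjusted p = 0.01), a ratio of 0.59, and stayed at -0.59 (adjusted p = 0.036) with offsets. B2M rose by 0.27 (SE 0.07, adjusted p = 0.0031), and was at 0.06 (adjusted p = 0.46) with offsets. HLA-B at -0.16 (SE 0.08, adjusted p = 0.11), HLA-E at -0.12 (SE 0.06, adjusted p = 0.15), HLA-C at -0.11 (SE 0.09, adjusted p = 0.37) and NLRC5 at -0.11 (SE 0.09, adjusted p = 0.39) did not pass. This is 1 member higher, against 19.3% of genes, and 1 lower, against 18.5%, and neither gene's libraries overlapped, as in 22.8% of genes upward and 22.4% downward. HLA-C turned to 0.22 (adjusted p = 0.0066) with offsets and HLA-B to 0.06 (adjusted p = 0.37), so that HLA-C was called higher and HLA-F lower, where 16.2% of genes were higher and 17.0% lower. Without replicate 1 of set 2, 5 members passed, with HLA-B at -0.25, HLA-C at -0.22 and HLA-E at -0.18, and without replicate 3 of sgUFM1 HLA-F missed the threshold (adjusted p = 0.051).

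Against set 1, which is sgUFL1 by the count table and its own control by the FPKM table, no member passed in sgUFM1, where 9.72% of genes did (4.57% higher, 5.15% lower). edgeR called 0 members, with 0 at an unadjusted p under 0.05. DESeq2 also called 0, with 1 at an unadjusted p under 0.05, and limma on FPKM called 0, with 0 at that p. HLA-F was at 0.50 (SE 0.28, adjusted p = 0.29), with no overlap between its libraries, as in 15.1% of genes, and B2M was at 0.27 (SE 0.13, adjusted p = 0.22). The other 4 lay between 0.05 and 0.13. With offsets 0 members were called and 3 reached an unadjusted p under 0.05, all of them higher in sgUFM1. HLA-B was then at 0.28 (adjusted p = 0.091), HLA-C at 0.30 (adjusted p = 0.15), HLA-E at 0.13 and HLA-F at 0.61, and the members' median was 0.23, against 0.11 without offsets. A change of the size seen for HLA-F could not be separated from the spread of 3 libraries with 26 to 54 counts each.

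Set 2 against the controls for sgUFL1, which is sgUFL1 against its own controls by the FPKM table and 1 control set against another by the count table, gave the most calls. HLA-F was 3.05-fold higher (log2 1.61, SE 0.28, adjusted p = 0.0019). HLA-B rose by 0.64 (SE 0.13, adjusted p = 0.004), HLA-C by 0.56 (SE 0.14, adjusted p = 0.0079), HLA-E by 0.48 (SE 0.13, adjusted p = 0.012) and NLRC5 by 0.39 (SE 0.13, adjusted p = 0.03), while B2M was at -0.13 (SE 0.14, adjusted p = 0.51). These 5 of 6 called higher stand beside 17.4% of genes higher and 18.4% lower, and the same 5 had no overlap between libraries, as in 24.7% of genes. The members' median was 0.52, against -0.03 over all genes. With offsets for GC content and length HLA-F kept its call at 1.24 (SE 0.25, adjusted p = 0.014), and was the only member to do so, where 4.9% of genes were called higher. HLA-B was then at 0.18, HLA-E at 0.19, NLRC5 at 0.05 and HLA-C at -0.09 (adjusted p = 0.21, 0.18, 0.8 and 0.65). Without replicate 2 of set 2, the calls of HLA-C, HLA-E and NLRC5 ended (adjusted p = 0.056, 0.076 and 0.13), and that of NLRC5 ended also without replicate 3 of set 2 (adjusted p = 0.13).

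Set 1 against the controls for sgUFL1, which is sgUFL1 against its own controls by the count table and control against control by the FPKM table, gave no call among members. HLA-C was at 0.40 (SE 0.17, adjusted p = 0.16), HLA-F at 0.38 (SE 0.33, adjusted p = 0.48), HLA-B at 0.37 (SE 0.16, adjusted p = 0.17) and HLA-E at 0.33 (SE 0.15, adjusted p = 0.18). NLRC5 was at 0.23 (SE 0.12, adjusted p = 0.23) and B2M at -0.10 (SE 0.19, adjusted p = 0.75). edgeR called 0 of 6, with 2 at an unadjusted p under 0.05, both higher, where it called 1.08% of genes higher and 0.02% lower. DESeq2 and limma also called 0. HLA-F had no adjusted p in DESeq2 and did not pass the filter of limma on FPKM, so there the 0 covers the other members only. Without replicate 2 of the controls HLA-B at 0.51 (adjusted p = 0.042) and HLA-E at 0.47 (adjusted p = 0.047) passed. With offsets for GC content and length HLA-B was at -0.02, HLA-C at -0.15 and NLRC5 at -0.08, and edgeR called none of 14996 genes (0.0%) and 0 members at an unadjusted p under 0.05.

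Between the 6 libraries whose names differ, HLA-F was the member called. It was lower in set 1 than in set 2 by a log2 fold change of -1.27 (SE 0.24, adjusted p = 0.032), a ratio of 0.41, and -1.19 (adjusted p = 0.03) with offsets, where 1.77% of genes were called lower. By the count table this is sgUFL1 against controls for sgUFM1, and by the FPKM table the sign turns. HLA-B at -0.31 (SE 0.12, adjusted p = 0.18), HLA-C at -0.21, NLRC5 at -0.20, HLA-E at -0.18 and B2M at -0.02 did not pass, so 1 of 6 members was called lower, against 1.49% of genes, and 0 higher, against 0.705%. With offsets HLA-B was at -0.20, NLRC5 at -0.15, B2M at -0.11, HLA-E at -0.10 and HLA-C at -0.07, none called. The HLA-F call did not hold without replicate 2 or 3 of set 1, nor without any 1 library of set 2 (adjusted p between 0.051 and 0.2), with the fold change then between -1.42 and -1.19.

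**Figure D2:**
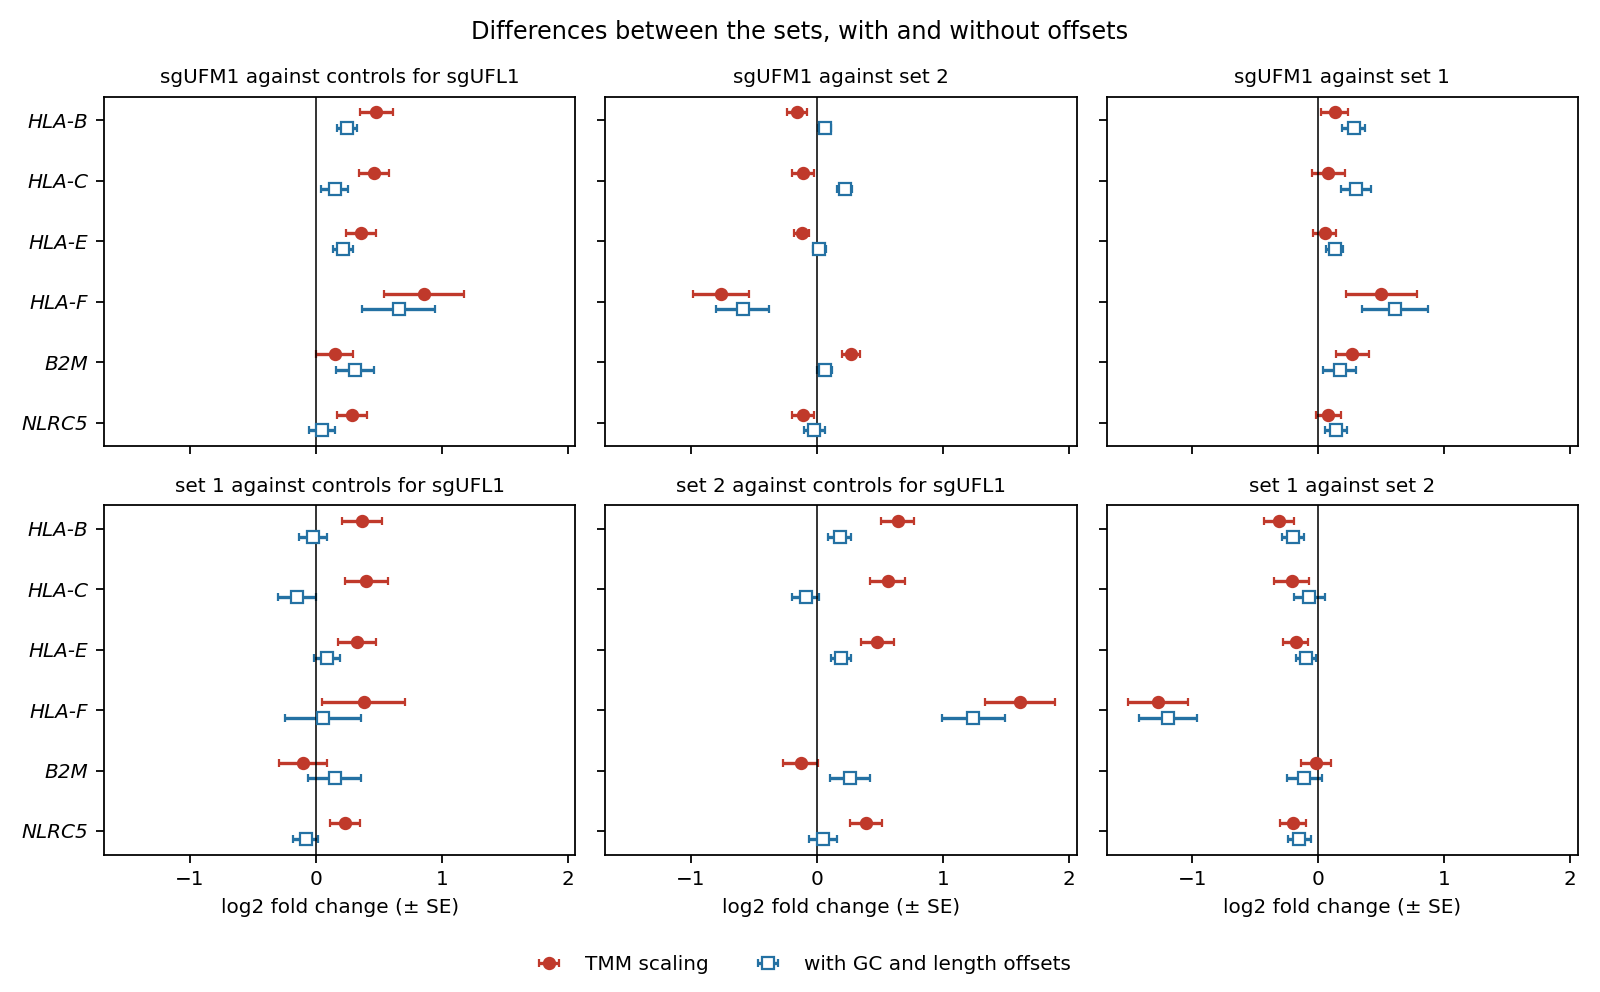
Log2 fold changes ± SE (x axis) of the 6 genes in the 6 comparisons, from the edgeR fit with TMM scaling (red) and with offsets for GC content and length (blue). In set 2 against the controls for sgUFL1, HLA-F lies at 1.61 and 1.24, while HLA-C lies at 0.56 with TMM scaling and at -0.09 with offsets.

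The difference between the sgUFM1 effect and the sgUFL1 effect, each against its own controls, has the same value under both sets of names, because the exchange leaves the contrast as it is. HLA-F had a difference of -1.13 (SE 0.37, adjusted p = 0.028), HLA-B of -0.52 (SE 0.19, adjusted p = 0.041) and HLA-E of -0.45 (SE 0.17, adjusted p = 0.048), so 3 of 6 members had a lower sgUFM1 than sgUFL1 effect, against 17.9% of 15821 genes lower and 17.0% higher. HLA-C at -0.50 (SE 0.20, adjusted p = 0.069), NLRC5 at -0.33 (SE 0.14, adjusted p = 0.074) and B2M at 0.37 (SE 0.21, adjusted p = 0.19) did not pass. With offsets 0 members passed in edgeR, with 1 at an unadjusted p under 0.05, against 9.37% of genes, and HLA-F was at -0.64, HLA-B at 0.09, HLA-E at -0.07 and HLA-C at 0.37. DESeq2 without offsets called 3 and limma on FPKM 0. The calls of HLA-B and HLA-E each ended in 9 of 12 fits that left out 1 library and that of HLA-F in 6 of 12.

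As a sum, HLA-B, HLA-C, HLA-E and HLA-F held 521, 479 and 498 CPM in sgUFM1, 394, 518.5 and 504 CPM in set 1, 501 to 605 CPM in set 2, and 324 to 442 CPM in the controls for sgUFL1. HLA-E made up 53.5% to 57.6% of these counts in every library, HLA-B 29.3% to 32.0%, and HLA-C most of the rest. The share of HLA-F was 0.472% to 0.635% in sgUFM1, 0.328% to 0.462% of the counts in set 1, 0.776% to 0.898% of those in set 2 and 0.345% to 0.46% in the controls for sgUFL1. Set 2 thus had the highest HLA-F share in all 3 of its libraries, and sgUFM1 the next highest. Per count of B2M there were 0.778 to 0.94 heavy chain counts in sgUFM1, 0.931 to 1.03 such counts in set 1, 1.09 to 1.17 for set 2 and 0.66 to 0.808 for controls for sgUFL1. Set 2 did not overlap any other set, and the controls for sgUFL1 overlapped sgUFM1 alone. The GC content of the transcripts, 54.8% to 62.7% for the heavy chains and 40.6% for B2M, differs in the same sense as the ratio, and its part was not tested. In the fit with offsets B2M was at 0.26 in set 2 against controls for sgUFL1, not below HLA-B at 0.18, HLA-E at 0.19 and HLA-C at -0.09. In bulk RNA fewer cells with a transcript and less of it per cell cannot be told apart.

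**Figure D3:**
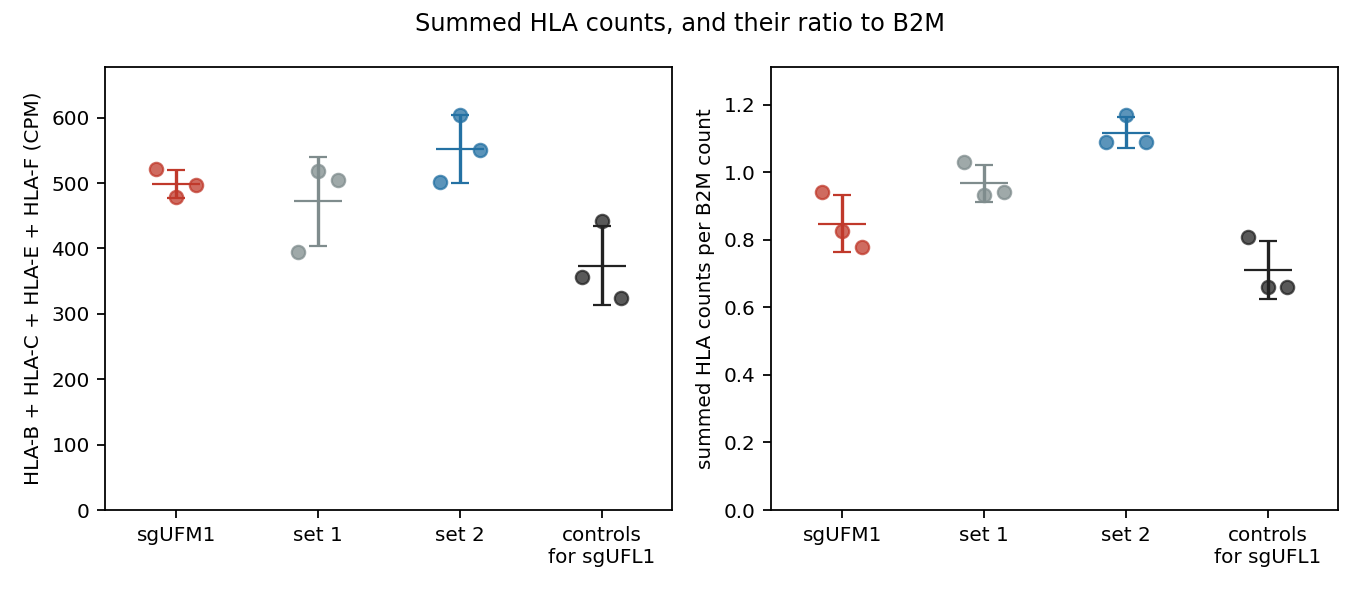
Summed CPM of HLA-B, HLA-C, HLA-E and HLA-F (left) and summed counts per B2M count (right) in each library, both axes from 0, with the mean ± SD of 3 libraries per set. The ratio lies at 1.09 to 1.17 in set 2 and at 0.66 to 0.808 in the controls for sgUFL1.

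Across the 12 libraries the heavy chain genes and NLRC5 varied together and B2M did not follow them. Pearson's r of log2 CPM was 0.98 between HLA-B and HLA-E, 0.96 between HLA-B and HLA-C and 0.94 between HLA-C and HLA-E. HLA-F had r of 0.85, 0.73 and 0.82 with HLA-B, HLA-C and HLA-E, and its highest value, 0.9, with NLRC5. B2M had r of 0.39, 0.46, 0.38 and 0.05 with HLA-B, HLA-C, HLA-E and HLA-F and -0.06 with NLRC5. The points share their library, its depth and its base composition. The mean GC content of the library itself had r of 0.85 with HLA-B, 0.78 with HLA-C, 0.88 with HLA-E, 0.8 with HLA-F, 0.86 with NLRC5 and -0.07 with B2M, so these values are descriptions of 12 libraries in 4 sets.

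**Figure D4:**
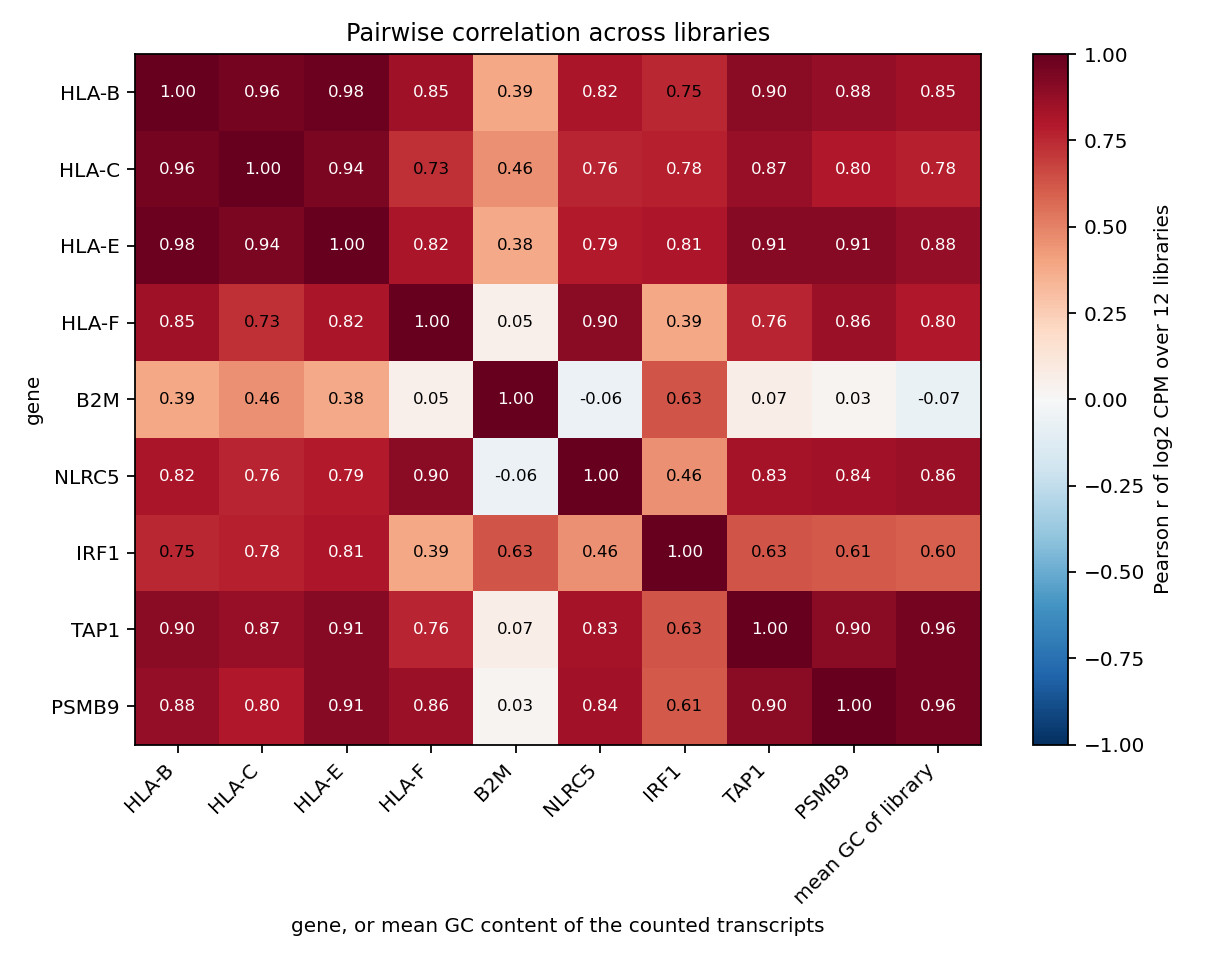
Pearson's r of log2 CPM over 12 libraries between the 6 genes, IRF1, TAP1, PSMB9 and the mean GC content of the library (colour scale from -1 to 1, value in each cell). The block of HLA-B, HLA-C and HLA-E is at 0.94 to 0.98, and B2M is between -0.06 and 0.46 with the other 5 members.

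The regulators that act upstream of class I did not move as a block. IRF1, an interferon-induced activator of class I promoters, averaged 42.2 ± 2.06 CPM in sgUFM1, 41.5 ± 13.9 in set 1, 35.1 ± 0.115 in set 2 and 26.6 ± 9.02 in controls for sgUFL1 (SD, n = 3 each). It rose by 0.66 (SE 0.19, adjusted p = 0.044) in sgUFM1 against controls for sgUFL1, a call that ended with offsets (0.57, adjusted p = 0.066), and by 0.27 (SE 0.08, adjusted p = 0.012; 0.30 with offsets, adjusted p = 0.0016) in sgUFM1 against set 2, where HLA-F was lower. Of 16 transcription factors of class I promoters, 1, IRF1, was higher in sgUFM1 against controls for sgUFL1, where 5.57% of all genes were. In sgUFM1 against set 2, 5 were higher and 2 lower (3 and 3 with offsets), beside 19.3% and 18.5% of all genes, and in set 2 against controls for sgUFL1, 3 were higher and 5 lower, beside 17.4% and 18.4%. In the last, ATF1 (-0.67, SE 0.13, adjusted p = 0.0025) and CREB1 (-0.56, SE 0.14, adjusted p = 0.01), which bind CRE-like elements, fell, while RFXANK (0.62, SE 0.18, adjusted p = 0.019), an RFX subunit, rose. Of these 8 calls 1 held with offsets. No factor of the list was called in the other comparisons of 2 sets.

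Of 14 genes that supply and load peptides, 3 were higher and 0 lower in sgUFM1 against controls for sgUFL1, with a median of 0.24, beside 5.57% of all genes higher: the trimming aminopeptidase ERAP1 at 0.44 (SE 0.10, adjusted p = 0.019), the immunoproteasome subunit PSMB10 at 1.08 (SE 0.28, adjusted p = 0.032) and the peptide editor TAPBPL at 0.91 (SE 0.24, adjusted p = 0.035). With offsets ERAP1 held at 0.61 (adjusted p = 0.0041), while PSMB10 at 0.82 (adjusted p = 0.055) and TAPBPL at 0.70 (adjusted p = 0.087) did not. In sgUFM1 against set 2, 6 were higher and 1 lower, and 8 and 0 with offsets, beside 19.3% and 18.5% of all genes without them, led by the chaperones CANX at 0.62 (SE 0.06, adjusted p = 2.1e-07) and PDIA3 at 0.56 (SE 0.06, adjusted p = 9.1e-07), ERAP1 at 0.66 (SE 0.07, adjusted p = 1.2e-06) and tapasin, TAPBP, at 0.44 (SE 0.07, adjusted p = 3.8e-05). Of the same genes 3 were higher and 2 lower in set 2 against controls for sgUFL1, beside 17.4% and 18.4% of all genes. PSMB10 at 1.13 (SE 0.27, adjusted p = 0.0068), the immunoproteasome subunit PSMB9 at 0.53 (SE 0.14, adjusted p = 0.011) and the transporter subunit TAP1 at 0.46 (SE 0.11, adjusted p = 0.0082) rose, and CANX fell by 0.53 (SE 0.13, adjusted p = 0.0068). With offsets 1 was higher and 1 lower, PSMB9 at 0.60 (adjusted p = 0.014) and TAP2 at -0.28 (adjusted p = 0.039), while PSMB10 was at 0.59 (adjusted p = 0.13) and CANX at -0.18 (adjusted p = 0.41). TAP1 averaged 82.0 CPM in sgUFM1, 85.8 in set 1, 91.7 in set 2 and 65.8 in controls for sgUFL1, an order that followed that of library GC content (r = 0.96), and was at 0.09 (adjusted p = 0.45) with offsets in set 2 against controls for sgUFL1. In sgUFM1 against set 1, 2 were higher, ERAP1 and ERAP2, each at 0.52 (adjusted p = 0.0089 and 0.047), beside 4.57% of all genes. With offsets ERAP2 was at 0.42 (adjusted p = 0.099). Without offsets no gene of the list was called in the other comparisons of sets.

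Of 18 interferon gamma signalling genes 17 were tested in the sgUFM1 comparisons. In sgUFM1 against controls for sgUFL1, 5 were higher and 0 lower (median 0.47), beside 5.57% and 4.43% of all genes: the chemokine CXCL10 at 2.54 (SE 0.73, adjusted p = 0.045), the guanylate-binding proteins GBP5 at 1.27 (SE 0.32, adjusted p = 0.027) and GBP2 at 0.58 (SE 0.13, adjusted p = 0.016), the adhesion receptor ICAM1 at 0.73 (SE 0.15, adjusted p = 0.011), and IRF1. Against set 2, 11 were higher and 0 lower (median 0.33), beside 19.3% and 18.5% of all genes, led by CXCL11 at 2.56 (SE 0.23, adjusted p = 5.7e-08), GBP5 at 1.90 (SE 0.18, adjusted p = 1.3e-07), GBP1 at 0.62 (SE 0.09, adjusted p = 1.4e-05) and GBP4 at 0.88 (SE 0.14, adjusted p = 4.5e-05), and 11 were higher and 0 lower with offsets. Against set 1, 3 were higher (GBP2 at 0.73, ICAM1 at 0.51 and GBP4 at 0.75, adjusted p = 0.0046, 0.011 and 0.042), beside 4.57% of all genes, and GBP4 was at 0.66 (adjusted p = 0.076) with offsets. In set 2 against controls for sgUFL1, where HLA-F rose, 2 of 15 were higher and 4 lower, CXCL11 (-2.22, SE 0.63, adjusted p = 0.016) among the lower, beside 17.4% and 18.4% of all genes. With offsets 2 were higher and 0 lower, and CXCL11 was at -1.80 (adjusted p = 0.13). In set 1 against set 2, GBP2 fell by 0.52 (adjusted p = 0.03).

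A list of 13 genes drawn up around the silencing and degradation of class I was also followed. It holds the repressive chromatin complex of EZH2, SUZ12 and EED and the membrane ligase MARCHF9. Not every gene in it has such a role: STT3B is a subunit of the glycosylation complex. Of 13, 1 was higher and 1 lower in sgUFM1 against controls for sgUFL1, the ER ligase SYVN1 at 0.38 (SE 0.11, adjusted p = 0.044) and EED at -0.43 (SE 0.10, adjusted p = 0.024), beside 5.57% of all genes higher and 4.43% lower. Both calls ended with offsets, SYVN1 at 0.20 (adjusted p = 0.097) and EED at -0.12 (adjusted p = 0.44), and STT3B was then called at 0.30 (adjusted p = 0.036). SUZ12, in set 2 against controls for sgUFL1, fell by 0.67 (SE 0.13, adjusted p = 0.0031), EZH2 by 0.48 (SE 0.12, adjusted p = 0.0076) and EED by 0.41 (SE 0.11, adjusted p = 0.012), and MARCHF9 rose by 0.52 (SE 0.13, adjusted p = 0.0074), with 4 of 13 lower in all, beside 18.4% of all genes. With offsets SUZ12 was at -0.18, EZH2 at -0.19, EED at 0.20 and MARCHF9 at 0.08, none called. In sgUFM1 against set 2, 5 were higher and 2 lower, beside 19.3% and 18.5% of all genes. STT3B at 0.51 (SE 0.07, adjusted p = 5.5e-06), EZH2 at 0.37 (SE 0.07, adjusted p = 0.00043) and SUZ12 at 0.35 (SE 0.08, adjusted p = 0.00099) were among the higher. With offsets SUZ12 was at 0.10 (adjusted p = 0.15), while STT3B at 0.35 and EZH2 at 0.24 stayed called. Against set 1, STT3B at 0.44 (adjusted p = 0.01) and RNF139 at 0.58 (adjusted p = 0.011) were higher and EED at -0.36 (adjusted p = 0.022) was lower.

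Among 10536 protein-coding genes with a mean of at least 5 CPM, those whose log2 CPM over the 12 libraries was most like each member were ranked by Pearson's r, with the members themselves left out of the ranking. For HLA-B they were CCDC71L (r = 0.986), LRRC8A (0.979) and UQCRC1 (0.975), and for HLA-C they were BMP4 (0.98), UQCRC1 (0.97) and CCDC71L (0.966). HLA-E was most like FLOT2 (0.989), CCDC12 (0.986) and JADE2 (0.983), and HLA-F most like TNNT1 (0.969), PLEKHA4 (0.961) and TMCO4 (0.958). For NLRC5, CARD19 (0.973) and MAP3K10 (0.97) were among the most alike. B2M was most like PSMA4 (0.956), GSAP (0.951) and PFN2 (0.947), whose transcripts have a GC content of 42.1%, 39.4% and 41.6%. Those named for HLA-E, HLA-F and NLRC5 have 55.8% to 68.4%, and those for HLA-B and HLA-C 43.8% for CCDC71L, 54.0% for BMP4, 57.6% for LRRC8A and 59.5% for UQCRC1.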

How the data were processed

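Total RNA was taken up in TRIzol and sequenced from Illumina libraries, per the labels' protocols, and whether strand was kept is not given in the sources used here. The deposited table of raw counts holds whole reads per gene, and the deposited FPKM table, made by the authors, holds the same libraries per length and depth. The tools STAR 2.7.7a, fastp 0.20.1 and featureCounts 2.0.0 and the build GRCh38 are named, without roles, per the submitters' processing notes. FPKM columns were matched to count columns by value over 9901 genes (SD of the log2 ratio 2e-10 for the match, at least 0.129 for the next best), and no group was assigned from expression. Totals were 15342793 to 18033331 counts. The 3 libraries per group set the precision. Pairs of replicates had chi-square values of 2.41 to 34.88 per gene, above sampling noise, and each library was counted as 1. The values were 16.84 to 34.88 within controls for sgUFL1, and 20.07 and 20.54 for replicate 1 of set 1. Such a spread does not show that the libraries came from separate cultures.

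Counts were tested with edgeR 4.0.16 (R 4.3.3), the quasi-likelihood test with TMM, filterByExpr and Benjamini-Hochberg adjustment over all genes tested, called at 0.05, with the 6 libraries of a comparison, or all 12 for the difference between effects. Alternatives were RLE and upper-quartile factors, 2 other count filters, DESeq2 1.42.0, a model over 12 libraries, a replicate block, lowess offsets (span 0.3) on GC content and length, limma 3.58.1 on log2(FPKM + 0.5), with pseudocounts of 0.1 and 1 and no filter, and each library left out. The scripts were tested on simulated data. Libraries were not paired by replicate number in the main test (r of deviations between libraries with the same number -0.21 to 0.38).

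Genes and annotation come from GENCODE 29, and promoters from RefSeq (GRCh38.p14). The members, 12 gene lists with 123 symbols, and the tests were chosen with earlier results of these data known. Text names the 6 members, UFL1, UFM1, IRF1, TAP1, PSMB9, up to 4 called genes of smallest p per list and the 3 most alike genes per member; results of some genes under this rule are not reported here. Some further called genes of short lists are named after their values were seen.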

Additional observations from a re-analysis of the deposited data

Results flagged for a closer look

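The sgUFM1 effect and the sgUFL1 effect, each against its own controls, differed for 3 of the 6 genes in the test of that difference (edgeR, 12 libraries, the same value under both sets of names), where 17.9% of 15821 genes were lower and 17.0% higher. HLA-B differed by -0.52 (SE 0.19, adjusted p = 0.041), HLA-E by -0.45 (SE 0.17, adjusted p = 0.048) and HLA-F by -1.13 (SE 0.37, adjusted p = 0.028) on the log2 scale, sgUFM1 minus sgUFL1. With offsets for GC content and length the values were 0.09 for HLA-B, -0.07 for HLA-E and -0.64 for HLA-F, none past the threshold. The calls of HLA-B and HLA-E each ended in 9 of 12 fits that left out 1 library, and that of HLA-F in 6 of 12. The part of library GC content in these differences was not tested further.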

How the results depend on the processing

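Of 783 values of the 6 members under alternatives, those that left out no library turned the sign in 13 cases. With the sign kept, they ended a call in 46 and gained one in 10, and 426 kept both direction and side of the threshold. Leaving out 1 library turned the sign in 8 and, with the sign kept, ended a call in 44 and gained one in 11. A turned sign is counted only as such, also where a call ended or was gained with it. HLA-F in set 2 against controls for sgUFL1 stayed called in all that were run. The causes were not tested. Counts of 18 to 92 limit HLA-F, and 3 libraries per set limit every gene.

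Members called in sgUFM1 against controls for sgUFL1 (2) were 4 with a model over 12 libraries, 0 with offsets, 0 in all 4 limma fits, and 0 to 5 with a library left out. Against set 2 (2) they were 1 with a model over 12 libraries, 1 with limma at a pseudocount of 0.1, 0 with limma without a filter, and 1 to 5. Against set 1 they stayed 0. In set 1 against controls for sgUFL1 (0) they were 0 to 2 with a library left out. In set 2 against controls for sgUFL1 (5) they were 1 with offsets, 1 with limma without a filter, and 2 to 5. In set 1 against set 2 (1) they were 2 without a count filter, 0 in all 4 limma fits, and 0 to 1. For the difference between effects (3) they were 0 with offsets, 0 in limma at 0.5, at 0.1 and without a filter, 1 in limma at 1, and 0 to 4.

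With the replicate number as a block, 2 members were called in set 1 against set 2, HLA-B (-0.31, adjusted p = 0.033) in addition to HLA-F, the NLRC5 call in set 2 against controls for sgUFL1 ended (0.39, adjusted p = 0.05), and HLA-C was gained for the difference between effects (-0.48, adjusted p = 0.036). Deviations of libraries with the same number had r of 0.38, 0.38 and -0.21 in set 1 against controls for sgUFL1. In the other comparisons r was -0.09 to 0.17. In set 1 against controls for sgUFL1 the block lowered the SE of HLA-C from 0.17 to 0.10 (0.39, adjusted p = 0.075). Whether the numbers pair the libraries of that comparison is open.

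Offsets turned the sign of HLA-B (0.06), HLA-C (0.22) and HLA-E (0.02) in sgUFM1 against set 2, of HLA-B (-0.02), HLA-C (-0.15), B2M (0.15) and NLRC5 (-0.08) in set 1 against controls for sgUFL1, of HLA-C (-0.09) and B2M (0.26) in set 2 against controls for sgUFL1, and of HLA-B (0.09), HLA-C (0.37), B2M (-0.09) and NLRC5 (0.07) for the difference. With a library left out, HLA-C ran from -0.06 to 0.23 and HLA-E from -0.06 to 0.1 in sgUFM1 against set 1 (over all comparisons -0.63 to 0.7 and -0.58 to 0.61), and B2M, which reached 0.53 for the difference, from -0.22 to 0.1 in set 1 against controls for sgUFL1, -0.23 to 0.07 in set 2 against controls for sgUFL1 and -0.11 to 0.13 in set 1 against set 2.

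Genes called over the whole table moved too: 1503 in sgUFM1 against controls for sgUFL1 (13 to 2565 over the alternatives, 275 to 4196 with a library left out), 5697 against set 2 (2794 to 5666, 4163 to 6525), 1456 against set 1 (193 to 2082, 118 to 4080), 165 in set 1 against controls for sgUFL1 (0 to 3463, 0 to 2419), 5438 in set 2 against them (1360 to 6417, 2486 to 6985), 330 in set 1 against set 2 (0 to 1116, 13 to 2564) and 5511 for the difference (1483 to 5788, 4061 to 6321).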

Other observations

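MHC class II genes, which present peptides taken up from outside the cell, were low in this line apart from the invariant chain CD74. Of 11, 7 were tested in sgUFM1 against controls for sgUFL1, with 1 higher, beside 5.57% of all genes. The list summed to 157 to 169 CPM in sgUFM1, 89.1 to 125 CPM for set 1, 150.0 to 167 CPM for set 2 and 67.9 to 121 CPM for controls for sgUFL1. CD74 lay at 132 to 146 CPM in sgUFM1, 126 to 140.0 CPM for set 2 and 77.8 to 110.0 CPM for set 1, and sgUFM1 and set 2 lay above every control for sgUFL1, the lowest of which had 54.2 CPM. It rose by 0.84 in sgUFM1 (SE 0.17, edgeR adjusted p = 0.012, 0.64 with offsets) and by 0.78 in set 2 (SE 0.17, adjusted p = 0.0048, 0.35 with offsets, adjusted p = 0.083), both against controls for sgUFL1. Against set 1, 4 genes were higher in sgUFM1, beside 4.57% of all genes: HLA-DMB at 1.52, HLA-DPA1 at 0.90, HLA-DMA at 0.81 and CD74 at 0.51 (adjusted p = 0.035, 0.046, 0.018 and 0.02). With offsets the HLA-DPA1 call ended (0.84, adjusted p = 0.069). Against set 2, HLA-DMA was higher in sgUFM1 at 0.50 and HLA-DRA lower at -0.63 (adjusted p = 0.01 and 0.0098), beside 19.3% and 18.5% of all genes. Higher in set 2 against controls for sgUFL1 were 4 genes, where 17.4% of all genes were. They were HLA-DPA1 at 1.14 (adjusted p = 0.0071), HLA-DPB1 at 1.99 (adjusted p = 0.021) and HLA-DRA at 1.24 (adjusted p = 0.028) beside CD74. With offsets HLA-DPA1 held at 1.42 (adjusted p = 0.014). HLA-DPB1 at 1.97 (adjusted p = 0.067) and HLA-DRA at 1.23 (adjusted p = 0.078) did not. In set 1 against set 2 HLA-DPA1 was lower at -1.21 (adjusted p = 0.042), beside 1.49% of all genes.

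Among 14 other genes of the NLR family, to which NLRC5 belongs, 9 were tested in sgUFM1 against controls for sgUFL1. Of these 1 was higher, the mitochondrial NLRX1 at 0.99 (SE 0.20, adjusted p = 0.01), beside 5.57% of all genes. Higher in set 2 against controls for sgUFL1 were 3, beside 17.4% of all genes: NLRX1 at 0.74, the class II transactivator CIITA at 0.47 and the inflammasome sensor NLRP3 at 0.35 (adjusted p = 0.012, 0.039 and 0.045), none with offsets. CIITA (-0.37) and NLRP3 (-0.29) were lower in sgUFM1 against set 2 (adjusted p = 0.033 and 0.02), beside 18.5% of all genes. Of 13 class I-like genes and NKG2D ligands 10 were tested. In sgUFM1 against controls for sgUFL1 edgeR called 0, with HFE at 0.49 (unadjusted p = 0.0079, adjusted p = 0.064), and with offsets 1, HFE at 0.62 (adjusted p = 0.029). In sgUFM1 against set 2, HFE at 0.48 and ULBP2 at 0.40 were higher and PROCR at -0.61 and the IgG receptor FCGRT at -0.51 lower (adjusted p = 0.0037, 0.0028, 3.9e-05 and 0.034). Of all genes 19.3% were higher and 18.5% lower. With offsets FCGRT was at -0.22 (adjusted p = 0.37) in this comparison. FCGRT, whose product also pairs with beta-2-microglobulin, was 1.18 higher on the log2 scale in set 2 against controls for sgUFL1 (SE 0.25, adjusted p = 0.0042) and at 0.61 (adjusted p = 0.099) with offsets.

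Of the marker lists, the 3 fibroblast genes stayed under 1 CPM and were not tested. KDR was the 1 endothelial gene tested of 4. It lay at 2.51 to 3.25 CPM in sgUFM1, 3.11 to 6.12 CPM for set 1, 4.82 to 6.28 CPM for set 2 and 4.21 to 8.88 CPM for controls for sgUFL1, and fell by 1.27 in sgUFM1 against controls for sgUFL1 (SE 0.29, adjusted p = 0.018). Of 2 leukocyte genes tested CSF1R was higher in sgUFM1 against set 2 at 0.82 (SE 0.30, adjusted p = 0.033). Of the 5 markers expected to be low in this line ERBB2 was the most abundant, at 40.6 to 71.9 CPM. It rose by 0.45 in set 2 against controls for sgUFL1 (SE 0.13, adjusted p = 0.015), and was at 0.13 (adjusted p = 0.37) with offsets.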
